A study of Mus musculus with 13 samples.

Results

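The 7 genes described here encode organisers of synapses: the cerebellins Cbln1, Cbln2, Cbln3 and Cbln4, the delta glutamate receptor Grid1 (GluD1), and the neurexins Nrxn2 and Nrxn3. They were taken as every probe set whose gene symbol in the platform annotation is one of these names, which gave 16 of the 45101 probe sets on the array and 7 of 18193 genes. Expression was measured on 13 Affymetrix mouse arrays, 1 per mouse, as intensities on a linear scale. The tumours were primary medulloblastoma, a malignant tumour of the hindbrain, from 6 Ptch1(+/-) mice, in which 1 copy of the hedgehog receptor gene Ptch1 is inactivated. They were set against wild-type granule neuron precursors of the cerebellum, taken 7 days after birth (GNPC, n = 3) and wild-type embryonic dorsal brainstem at E16.5 (DBS, n = 4), all untreated. The labels give no strain, sex, tumour age or method of cell isolation, and batch and tissue cannot be told apart.

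Cerebellins are secreted proteins of the C1q family that form a bridge across the synapse. On one side they bind neurexins in the presynaptic membrane, and on the other delta receptors such as GluD1 in the postsynaptic membrane. In the cerebellum, granule neurons secrete Cbln1, with Cbln3 as a partner that depends on it, and their parallel fibres contact Purkinje cells.

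The arrays had medians of 91.4 to 117.7 intensity units. The log2 ratio of 3' to 5' control signal, a sign of RNA quality, was 1.33 to 1.59 in the tumours, 1.1 to 1.2 in GNPC and 1.23 to 2.43 in DBS. Its highest value came from DBS 2, without which 8 member probe sets still passed in the comparison of tumours with DBS. Atoh1, of granule neuron precursors, was 6383.3 to 11733.4 in the tumours, 825.7 to 1251.8 in GNPC and 56.1 to 166.5 in DBS. Mfap4, another precursor marker, went the other way between tumours and GNPC, with means of 332 and 1378, and was 5.35 in DBS. The hindbrain patterning gene Hoxb5 was at least 4637.1 in DBS and at most 20.8 in any tumour or GNPC array. The GNPC arrays also held markers of other cerebellar cells, and how pure the GNPC samples were was not tested. The summed intensity of 8 Purkinje cell genes was 5383 to 18382 in the tumours, 34408 to 42224 in GNPC and 5814 to 6003 in DBS. None of 52 marker genes was at 0 on any array.

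Of the 16 member probe sets, 13 exceeded the median of their own array on at least 3 of 13 arrays and were tested with limma over 25881 probe sets. The test was made on log2(intensity + 18). To pass, a probe set needed a p under 0.05 after Benjamini-Hochberg adjustment and a log2 difference no smaller than 1, which is 2-fold. Against GNPC, 7 of the 13 were lower in tumours, 1 was higher and 5 did not pass. Over all tested probe sets 12.6% were lower and 5.61% higher. Against DBS, 7 were lower, 1 was higher and 5 did not pass, beside 18.2% lower and 16.0% higher over all. Probe sets of 1 gene are not independent, and all 4 tested for Nrxn3 were among the lower in both comparisons. The probe sets that passed came from 4 of 7 genes against GNPC and 5 of 7 against DBS. Among 12266 genes taken by 1 probe set each, 14.1% were lower and 6.53% higher against GNPC, and 20.8% and 15.4% against DBS. The median log2 difference of the 13 was -1.49 against GNPC and -1.51 against DBS, where all tested probe sets had medians of -0.03 and 0.08. The same tumour arrays serve both comparisons. In bulk tissue, fewer cells of a type and less RNA per cell cannot be told apart.

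In GNPC against DBS, 4 of the 13 were higher, 4 lower and 5 did not pass, where 9.55% of all tested probe sets were higher and 7.94% lower. Tumours and GNPC had separate ranges for 11 of 13 member probe sets, tumours and DBS for 7 of 13, and GNPC and DBS for 13 of 13. The same shares over all tested probe sets were 40.3%, 52.0% and 52.6%. With an equal median set on each array, the median of all tested probe sets became 0.19, 0.2 and 0 on the log2 scale. In the comparison of tumours with GNPC the calls over all probe sets then split 2483 higher to 2509 lower, against 1453 to 3272. No member changed direction under that scaling.

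Markers of neurons and of other cells also differed between the groups, and their part in the member differences was not tested. Of 6 pan-neuronal genes, 4 were lower in tumours than in GNPC and 5 were lower than in DBS, with none higher. Their summed intensity was 13109 to 27912 in tumours, 47220 to 50764 in GNPC and 73732 to 83274 in DBS. Of 6 precursor markers, 3 were higher in tumours than in GNPC and 1 lower, with sums of 36382 to 40645 in tumours, 24708 to 26984 in GNPC and 13640 to 18736 in DBS. Against DBS, 5 of these 6 were higher in tumours and none lower. Of 7 tested genes of differentiated granule neurons, 4 were lower in tumours than in GNPC and none higher, while against DBS 3 were higher and 3 lower. The sum over the 8 on the array was 8910 to 17968 in tumours, 27899 to 29633 in GNPC and 4193 to 5182 in DBS. Of 6 tested dorsal brainstem neuron genes, 6 were lower in tumours than in DBS, with sums of 1592 to 3896 in tumours, 4040 to 5727 in GNPC and 23412 to 30441 in DBS. Among 8 Purkinje cell genes, 5 were lower in tumours than in GNPC and none higher, while against DBS 3 were higher and 3 lower. All 5 interneuron markers were lower in tumours than in GNPC and than in DBS. For astrocytes and Bergmann glia, 4 of 5 markers were lower in tumours than in GNPC and none higher, and against DBS 2 were lower and 1 higher. All 3 meninges markers were lower in tumours than in GNPC and 2 of 3 lower than in DBS, with sums of 753 to 1925 in tumours, 5020 to 5664 in GNPC and 2951 to 4659 in DBS. The macrophage markers Cd68 and Aif1 were higher in tumours in both comparisons. The third, Csf1r, passed in neither, at log2 differences of -0.32 from GNPC and -0.41 from DBS. The sum over 3 macrophage markers was 2244 to 5488 in tumours, 2827 to 3589 in GNPC and 3080 to 3517 in DBS. Some markers counted as lower were dim in tumours. Among them Grm2, Lhx5, Lbx1 and Hoxb5 had tumour means of 33.4, 24.8, 39.3 and 6.62, and entered the test through the normal tissues.

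**Figure D1:**
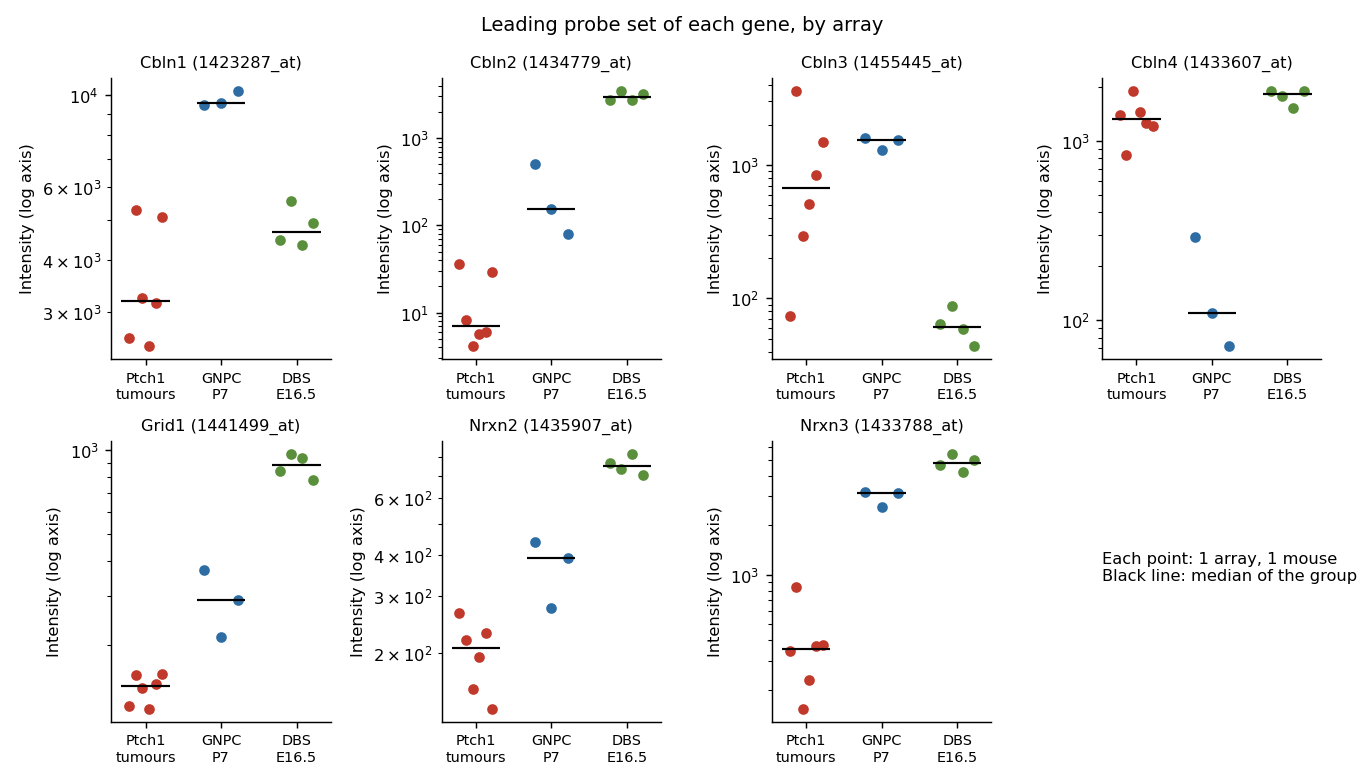
Intensity (log axis) of the leading probe set of each gene, the one of highest mean, on each array; points are arrays and black lines group medians. The 6 tumours lie below every GNPC and DBS array for Cbln2, Grid1, Nrxn2 and Nrxn3, above every GNPC array for Cbln4, and from 73.6 to 3575.7 for Cbln3.

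Cbln1, the cerebellin that links parallel fibres to Purkinje cells, was lower in tumours than in GNPC by 2 of its 3 probe sets, and differed from DBS by none that passed. Probe set 1423287_at, the leading one, ranged from 2479.6 to 5292 in tumours with a median of 3189, and was 9489.6, 9588.5 and 10225 in GNPC and 4466.1, 5553.1, 4346.6 and 4910.7 in DBS. Every tumour was below every GNPC array, and the tumours overlapped with DBS. Tumours 2 and 6 were the highest of the tumours in all 3 probe sets. The log2 difference from GNPC was -1.49 ± 0.21 (SE; limma adjusted p = 6.25e-05), which is 2.8-fold lower. By 1423288_s_at Cbln1 was 3.99-fold lower, at 1159 ± 396 in tumours (SD, n = 6) and 4485 ± 287 in GNPC (SD, n = 3). By 1423286_at the difference of -0.85 ± 0.17 missed the 2-fold minimum, though all tumours were again below all GNPC arrays.

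Against DBS no Cbln1 probe set passed, and their signs differed. The log2 difference was 0.58 ± 0.16 by 1423286_at, -0.46 ± 0.19 by 1423287_at and -0.35 ± 0.19 by 1423288_s_at (limma adjusted p = 0.00423, 0.046 and 0.117). GNPC exceeded DBS by all 3 probe sets, by 2.69-fold, 2.03-fold and 3.13-fold. The call of 1423287_at in that comparison stood at a log2 difference of 1.02 and was lost without GNPC 3 (0.99), DBS 1 (0.99) or DBS 3 (0.98), and with array medians made equal (0.9).

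Cbln2, a cerebellin of forebrain and brainstem neurons, was at the bottom of the intensity range in every tumour. Its probe set 1434779_at gave 36.3, 8.2, 4.1, 5.7, 5.9 and 29.2 in tumours 1 to 6, against 498.2, 155.1 and 79.8 in GNPC and 2723.6, 3447.5, 2714.6 and 3194.7 in DBS. The 3 groups did not overlap, and DBS was the highest. The probe set was under the array median in all 6 tumours, so that it entered the test through the normal tissues and its fold depends on the pseudocount. The log2 difference from DBS was -6.62 ± 0.38 (SE; limma adjusted p = 1.35e-09), and it was -8.02 with a pseudocount of 1 and -5.58 with 50. From GNPC it was -2.75 ± 0.42 (limma adjusted p = 0.000103), and -3.99 and -1.94 with those pseudocounts. GNPC was 14.7-fold below DBS. Without GNPC 1, the highest GNPC array, the log2 difference was -2.08 for tumours from GNPC and -4.54 for GNPC from DBS, against -2.75 and -3.87 with it, and both still passed.

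Cbln4, a cerebellin secreted by subsets of neurons that also binds neurexins, was the member that was higher in tumours than in GNPC. Its intensity by 1433607_at was 1390.8, 840.2, 1894.2, 1453.5, 1259.5 and 1205.9 in tumours 1 to 6, against 290.2, 110.2 and 71.6 in GNPC. Every tumour was above every GNPC array, and the lowest tumour was tumour 2. The log2 difference was 3.12 ± 0.3 (SE; limma adjusted p = 2.6e-06), an 8.67-fold higher level in tumours, and it kept its call without each array in turn. DBS stood at 1892.9, 1783.3, 1529.3 and 1895.3, which overlapped with the tumours (log2 difference -0.44 ± 0.28, limma adjusted p = 0.177). GNPC was 11.7-fold below DBS (limma adjusted p = 1.39e-06). The probe set was above the array median on only 1 of 3 GNPC arrays, with an SD of 0.92 on the log2 scale. The size of both folds that involve GNPC thus rests on dim and variable values.

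Among the GNPC arrays, GNPC 1 was the highest for the tested probe sets of Cbln2, Cbln3, Cbln4, Grid1 and Nrxn2 and for 3 of 4 of Nrxn3, and for none of Cbln1. Without GNPC 1 the same number of member probe sets passed as with it, 8 in each comparison.

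Cbln3, the cerebellin of cerebellar granule neurons, was in the tumours the most variable member. Probe set 1455445_at gave 73.6, 3575.7, 292.6, 509.5, 841.4 and 1480.1 in tumours 1 to 6, against 1590.6, 1293.7 and 1530.2 in GNPC and 64.0, 88.1, 58.6 and 43.8 in DBS. Tumour 1 lay within the range of DBS, tumour 6 within that of GNPC, and tumour 2 above every normal array. The difference from GNPC did not pass (log2 -1.21 ± 0.77 SE, limma adjusted p = 0.221), and without tumour 2 it did (-1.71, limma adjusted p = 0.0381). Against DBS Cbln3 was 8-fold higher in tumours on average (log2 difference 3 ± 0.7, limma adjusted p = 0.00154), with overlapping values. GNPC was 18.5-fold above DBS. This probe set was under the array median on every DBS array. It therefore entered the test through the tumours and GNPC, and the size of both folds over DBS depends on the pseudocount. The dimmer probe set 1422911_at also had tumour 2 on top, at 359.8, and passed in no comparison. Its log2 difference of 1.39 between GNPC and DBS had a limma adjusted p of 0.0567. That difference passed without tumour 1, 2 or 3 (limma adjusted p = 0.046, 0.00942 and 0.043), with array weights and with only those tissues fitted. The fit pools the spread of all groups, so the tumours enter its SE, which was 0.55 with them and 0.24 without them (limma adjusted p = 0.000888). The difference of tumours from DBS by 1422911_at, 0.89 ± 0.47, passed without tumour 1 or 3 (1.1 each).

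The order of the 6 tumours in Cbln3 by 1455445_at, from tumour 2 through 6, 5, 4 and 3 down to tumour 1, was also that of several markers of cerebellar neurons. Gabra6, a subunit of the GABA-A receptor found in mature granule neurons, was 6.8, 4620.9, 369.7, 724.3, 952.4 and 1810.9 in tumours 1 to 6. It was 5052.7 to 6141.2 in GNPC and 21.3 to 34.7 in DBS. The Purkinje cell genes Calb1 and Pcp2 spanned 32.5 to 3812.1 and 10.2 to 1701.9 over the tumours in that order, and stood at 13398.9 to 16138.8 and 5296.5 to 6517.8 in GNPC. Tumour 2 had more Cbln3 than any GNPC array and less Gabra6, Calb1 and Pcp2 than every GNPC array. Of 52 marker genes on the array, 6 had this order: Gabra6, Calb1, Pcp2, the Purkinje cell genes Slc1a6 and Car8, and the GABA-synthesizing enzyme Gad2. These were 4 of 8 Purkinje cell genes, 1 of 8 genes of differentiated granule neurons and 1 of 5 interneuron genes, and none on the other 7 lists. The Purkinje cell genes Pvalb, Foxp2, Lhx1 and Lhx5 had other orders, with tumour 3, 1, 6 and 4 on top. Of 25881 tested probe sets, 65 had the order of 1455445_at (0.251%). By the dimmer 1422911_at only tumours 1 and 3 changed places, at nearly equal values of 30.7 and 30.6, both under their array medians. That order, 2, 6, 5, 4, 1 and 3, was also the order of the pan-neuronal genes Syt1 and Snap25. The part of these cells in the Cbln3 values was not tested.

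**Figure D2:**
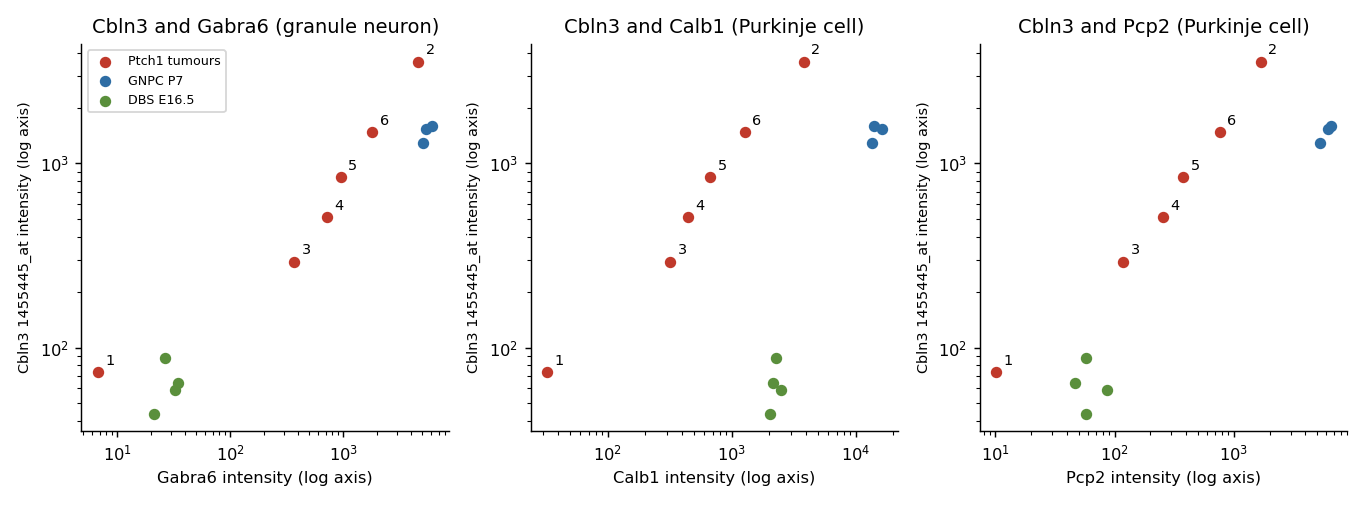
Intensity of Cbln3 (1455445_at, vertical log axis) against Gabra6, Calb1 and Pcp2 (horizontal log axes) on each array, with tumours numbered. In all panels the tumours climb in the order 1, 3, 4, 5, 6, 2, and the DBS arrays lie at a Cbln3 intensity of at most 88.1.

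The promoter windows of Cbln3 and Cbln4 are shown because Cbln4 was above GNPC in every tumour while Cbln3 was spread widely over the tumours. RefSeq sequences on GRCm38.p6 run from 250 bases before to 50 after the start of the gene, 5′ to 3′ on the minus strand, at chr14:55884207-55884506 for Cbln3 and chr2:172043417-172043716 for Cbln4. Capitals mark matches, on either strand, to 3 motifs chosen after the values were seen: the E-box CANNTG, bound by factors of the Atoh1 class, TTGGC, the short recognition motif of nuclear factor I, and TGGGTGGTC, the site of the hedgehog effectors Gli1 to Gli3.
Cbln3: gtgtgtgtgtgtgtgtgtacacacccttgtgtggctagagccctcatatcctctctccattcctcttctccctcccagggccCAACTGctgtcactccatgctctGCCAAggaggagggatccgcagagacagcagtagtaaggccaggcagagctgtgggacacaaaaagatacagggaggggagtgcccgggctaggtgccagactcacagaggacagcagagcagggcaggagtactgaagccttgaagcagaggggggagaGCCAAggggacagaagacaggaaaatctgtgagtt
Cbln4: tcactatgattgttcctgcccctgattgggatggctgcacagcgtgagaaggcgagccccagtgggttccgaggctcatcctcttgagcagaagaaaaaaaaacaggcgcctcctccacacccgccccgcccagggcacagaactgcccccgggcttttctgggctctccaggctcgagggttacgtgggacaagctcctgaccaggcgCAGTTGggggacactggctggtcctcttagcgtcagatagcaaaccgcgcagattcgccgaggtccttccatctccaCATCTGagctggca
The Cbln3 window held 1 E-box, 2 nuclear factor I motifs and no Gli site, and the Cbln4 window 2 E-boxes and neither of the others, with no overlap between motifs. Of 32851 promoter windows of this length, 72.3% held an E-box, 46.7% the nuclear factor I motif and 0.253% the Gli site. A window in the table was found for 3 of the 7 genes, the third being Nrxn3.

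Grid1, the delta receptor GluD1, was lowest in tumours and highest in DBS. Probe set 1441499_at ranged from 117.7 to 156.7 in tumours with a median of 142, and gave 372.4, 213.4 and 289.6 in GNPC and 840.4, 968.3, 933.1 and 777.6 in DBS. The 3 groups did not overlap. Tumours were 5.72-fold below DBS (log2 difference -2.52 ± 0.15 SE, limma adjusted p = 2.37e-09), and GNPC was 2.95-fold below DBS. The difference of tumours from GNPC, -0.95 ± 0.17 (limma adjusted p = 0.000342), was just short of 2-fold, and passed it without GNPC 2 (-1.15) and with a pseudocount of 1 (-1.03). Its spread among tumours was small, with an SD of 0.16 on the log2 scale, where the median over all tested probe sets was 0.28.

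Neurexins are presynaptic receptors whose many splice forms bind cerebellins, neuroligins and other ligands. Nrxn2 by 1435907_at ranged from 134.9 to 266.5 in tumours with a median of 207, and gave 437.9, 275.4 and 391.0 in GNPC and 766.1, 734.9, 818.7 and 704.2 in DBS. The groups did not overlap, though the lowest GNPC array was close to the highest tumour. Nrxn2 was 3.62-fold lower in tumours than in DBS (log2 difference -1.85 ± 0.18 SE, limma adjusted p = 3.19e-07). Against GNPC its difference of -0.83 ± 0.2 did not reach 2-fold, except without GNPC 2 (-1.01). GNPC was 2.04-fold below DBS, a call that was lost without GNPC 2 (-0.84), without DBS 3 (-0.99) and with a pseudocount of 50 (-0.97).

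Nrxn3 was lower in tumours than in either normal tissue by all 4 of its tested probe sets. Its leading probe set 1433788_at gave 345.5, 846.0, 153.4, 231.3, 368.5 and 373.5 in tumours 1 to 6, against 3179.9, 2595.6 and 3120.8 in GNPC and 4615.7, 5423.1, 4210.9 and 4952.2 in DBS. No tumour reached the range of a normal tissue, and tumour 2 came nearest. The level was 8.35-fold below GNPC (log2 difference -3.06 ± 0.34 SE, limma adjusted p = 7.46e-06) and 13.5-fold below DBS (log2 difference -3.75 ± 0.31, limma adjusted p = 5.7e-08). Probe sets 1438193_at and 1456137_at gave 7.22-fold and 5.25-fold against GNPC, and 11.4-fold and 8.44-fold against DBS. All 3 of these had tumour 2 highest and tumour 3 lowest.

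Probe set 1439629_at of Nrxn3 behaved differently among tumours and between the normal tissues. It ranged only from 152.5 to 240.5 over the tumours, with tumour 1 highest and tumour 6 lowest, and was 689.1, 688.5 and 701.2 in GNPC and 507.4, 676.0, 551.5 and 664.1 in DBS. GNPC lay above DBS by this probe set (log2 difference 0.21 ± 0.17 SE) and below it by the other 3 (-0.66 to -0.69), and none of the 4 passed in that comparison. Tumours were 3.29-fold below GNPC and 2.84-fold below DBS by it. Which transcripts each probe set reads is not given in the sources used here.

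**Figure D3:**
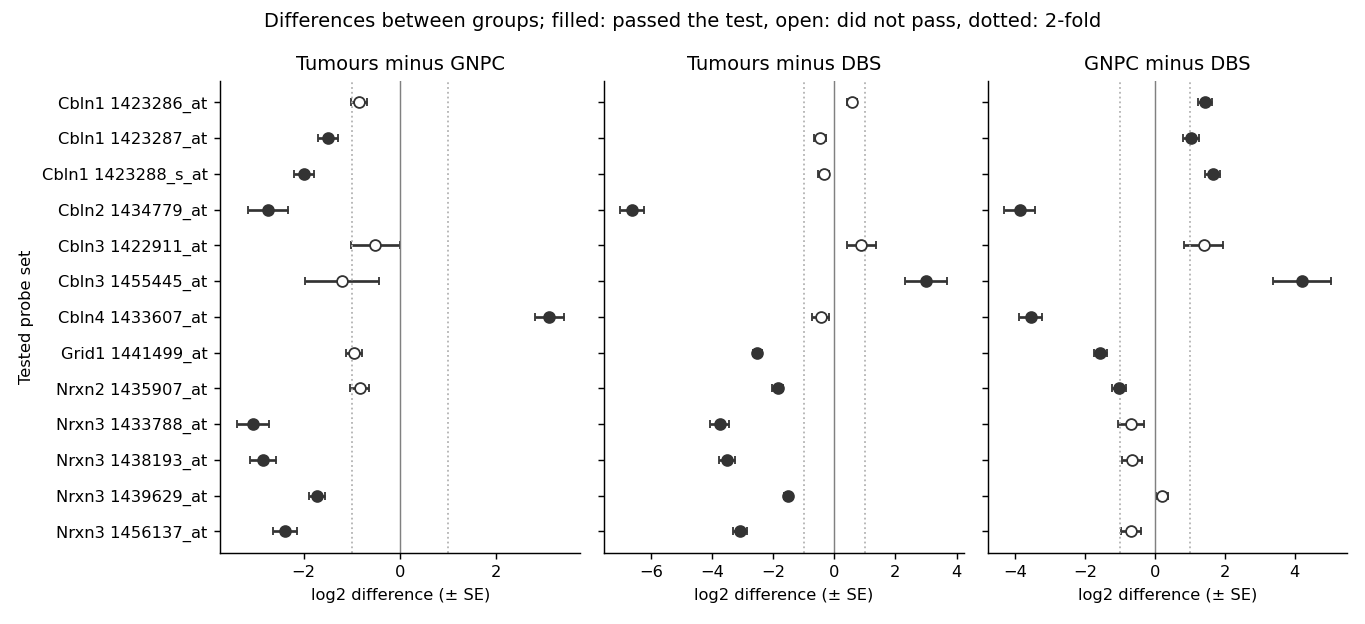
Log2 difference with its standard error for the 13 tested probe sets in the 3 comparisons of groups; filled points passed the test, open points did not, and dotted lines mark 2-fold. Cbln4 stands at 3.12 in tumours minus GNPC and -0.44 in tumours minus DBS, and the 4 Nrxn3 probe sets lie below -1 in both tumour comparisons.

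The remaining 3 member probe sets did not exceed their array's median on any array and were not tested. Grid1 1421569_at was 2.4 to 26.6 in tumours, 4.1 to 11.7 in GNPC and 8.6 to 48.9 in DBS. Nrxn2 1455499_at was 1.2 to 16.2 in tumours, 5.7 to 23.2 in GNPC and 5.3 to 31.0 in DBS. Nrxn3 1432931_at was 4.8 to 39.9 in tumours, 57.0 to 115.7 in GNPC and 64.4 to 102.8 in DBS, so that its tumours lay below both normal tissues as with the tested Nrxn3 probe sets.

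Within the tumours, the members covered a wide range of variability. The SD over 6 tumours on the log2 scale was 1.84 for Cbln3 1455445_at, larger than that of 99.7% of tested probe sets, and 1.16 for Cbln3 1422911_at. It was 0.78 for Nrxn3 1433788_at, larger than that of 94.8%, from 0.36 to 0.47 for the Cbln1 probe sets and 0.38 for Cbln4. Tumour 2 was the highest tumour for 2 of 3 Cbln1 probe sets, both Cbln3 probe sets and 3 of 4 tested Nrxn3 probe sets, and the lowest for Cbln4. Tumour 2 was also the highest tumour for 6 of 8 markers of differentiated granule neurons, 4 of 8 of Purkinje cells, 4 of 5 of interneurons and 3 of 5 of astrocytes and Bergmann glia. It was the highest for 2 of 6 pan-neuronal, 2 of 6 brainstem, 1 of 6 precursor, 1 of 3 macrophage, 1 of 3 meninges and 0 of 2 unipolar brush cell markers. The share of all tested probe sets with tumour 2 highest was not counted, so a trait of the whole array cannot be told apart here. Tumour 2 had the highest array median of the tumours (108.8) and the lowest mean correlation with the other tumours (0.9479).

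Other genes of the same synapses were taken from a list of 60, of which 53 were on the array and 52 were tested by the probe set of highest mean. Against GNPC, 23 were lower in tumours, 3 higher and 26 did not pass. Among 12266 genes taken in this way 14.1% were lower and 6.53% higher. Against DBS, 30 were lower, 2 higher and 20 did not pass, where 20.8% of genes were lower and 15.4% higher. In GNPC against DBS 12 were lower and 4 higher, where 9.54% of genes were lower and 8.72% higher. The median log2 difference of the 52 was -0.82, -1.36 and -0.57.

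By role, 10 of 17 neurexin ligands other than cerebellins were lower in tumours than in GNPC and 13 of 17 lower than in DBS, with none higher. Among the neuroligins, given as the classical neurexin ligands, Nlgn3 was lower in tumours by log2 differences of -1.86 from GNPC and -2.6 from DBS. Nlgn2 was also lower in both comparisons, and Nlgn1 was lower than in DBS (-1.69), with a difference of -0.82 from GNPC that did not pass. Of 7 scaffolds of neurexins, 4 were lower in each comparison, with none higher, among them Lin7a, a scaffold that assembles with Cask and is named here after its values were seen, at 1351 in tumours, 5953 in GNPC and 5076 in DBS. Of 17 other organisers, 7 were lower and 1 higher against GNPC, and 10 were lower and none higher against DBS. Of 6 C1q-like relatives and their receptors 1 was lower and 1 higher against GNPC, and 2 were lower and 1 higher against DBS. Of 5 tested binding partners of delta receptors 1 was lower and 1 higher in each. Among the genes counted as lower, Lrrtm4, Nxph2, Lin7b and Il1rapl1 were under the array median in every tumour and entered the test through the normal tissues.

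The genes named by size of change against both tissues were in large part the same. Tenm2, a teneurin that binds latrophilins across the synapse, was 477 ± 219 in tumours (SD, n = 6), 4092 ± 962 in GNPC (SD, n = 3) and 10263 ± 1623 in DBS (SD, n = 4), which was 9.13-fold and 23.1-fold lower in tumours. Clstn2, a calsyntenin of the postsynaptic membrane, was 7.2-fold lower than in GNPC and 38.9-fold lower than in DBS, with 106 ± 57.6 in tumours, 816 ± 162 in GNPC and 4562 ± 1304 in DBS. Lrrtm1, a leucine-rich neurexin ligand, was 6.97-fold and 21.2-fold lower. The tumours did not overlap with either normal tissue for these 3 genes. Tumour values of Clstn2 and Lrrtm1 were low, so that the size of their folds depends on the pseudocount.

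Grid2ip and C1ql1 went the other way. Grid2ip encodes delphilin, a scaffold protein of Purkinje cell synapses, and its intensity was 813.7, 319.3, 203.0, 595.4, 479.6 and 463.7 in tumours 1 to 6. It was 135.1, 124.2 and 146.8 in GNPC and 30.2, 61.4, 61.1 and 69.6 in DBS. Every tumour exceeded every normal array, by 2.99-fold on average over GNPC (limma adjusted p = 0.00122) and 6.37-fold over DBS (limma adjusted p = 1.42e-06). C1ql1, a C1q-like protein that climbing fibres release, was 188.9 to 850.9 in tumours, 91.5 to 134.7 in GNPC and 88.4 to 95.0 in DBS, and was 2.86-fold and 3.23-fold higher in tumours. Both genes were under the array median on every DBS array, and C1ql1 also in GNPC 1 and GNPC 2. Grid2ip thus entered the test through the tumours and GNPC, and C1ql1 mainly through the tumours. Ntrk3, a neurotrophin receptor that also binds a presynaptic phosphatase, was 2.13-fold higher than in GNPC and not called against DBS, where another of its probe sets passed in the opposite direction.

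Between the normal tissues, the partner genes furthest below DBS in GNPC were Nxph2 and Nxph1, neurexophilins that bind neurexins, and Clstn2. Nxph2 was 34.7, 2.1 and 17.4 in GNPC and 558.8 to 639.9 in DBS (log2 difference -4.19, limma adjusted p = 3.88e-07). Its GNPC values lay around the pseudocount, so that the size of this difference depends on it. Nxph2 was also under the array median in every tumour and GNPC array, so that it entered the test through DBS. Nxph1 was 4.19-fold lower. The largest rises in GNPC over DBS were those of Apba2 (2.46-fold), Homer3 (2.22-fold) and Grid2ip (2.13-fold). Apba2 is an adaptor of the neurexin complex and Homer3 a scaffold of Purkinje cells.

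**Figure D4:**
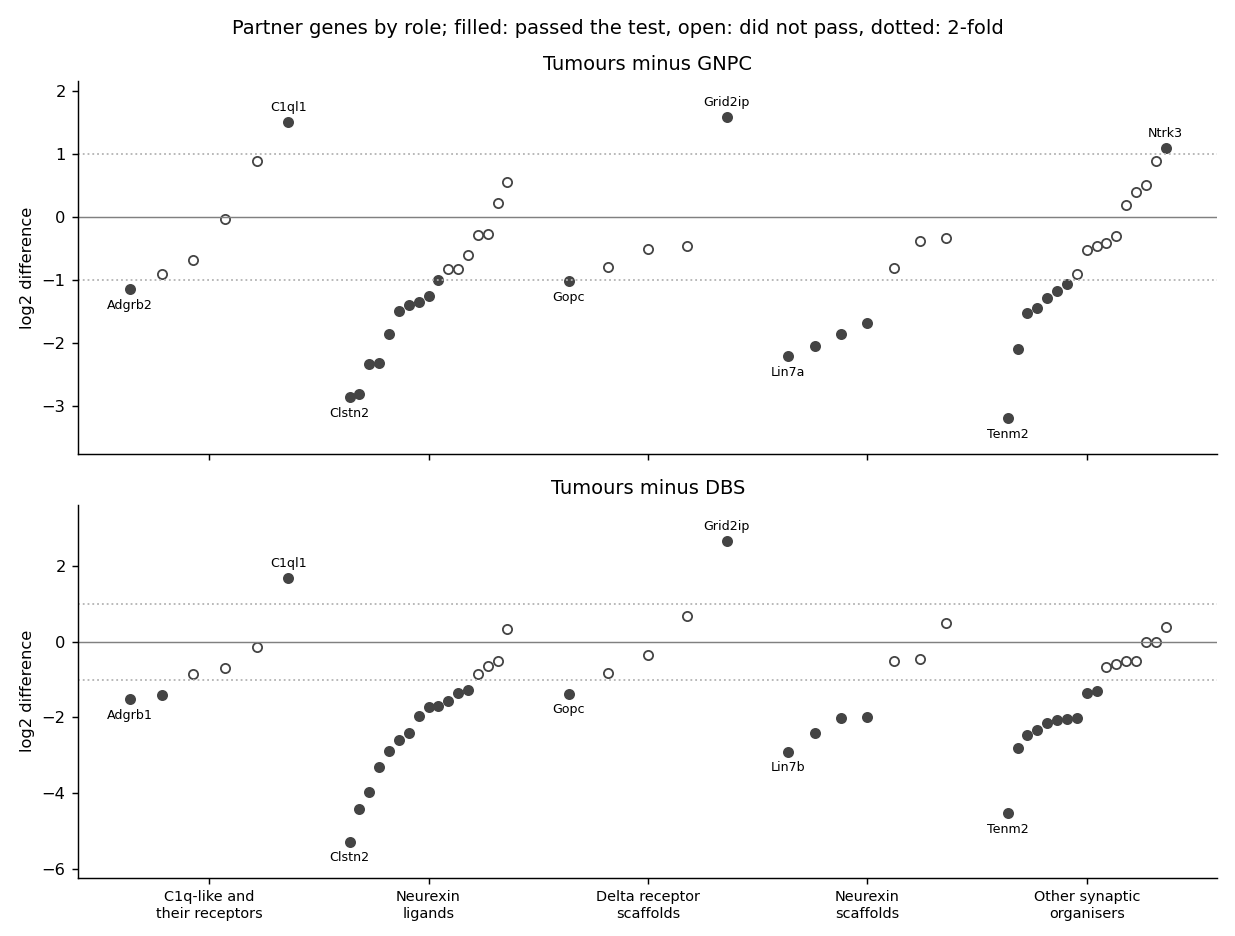
Log2 difference of 52 partner genes in tumours minus GNPC (top) and tumours minus DBS (bottom), by role; filled points passed the test, open points did not, and the outermost passing gene of each role is named. Grid2ip and C1ql1 lie above 1 in both panels, and Clstn2 and Tenm2 are the lowest points of their roles.

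The genes whose profile over the 13 arrays lay nearest to each member were found by the root-mean-square difference between log2 values centred on each gene's own mean, among 12266 genes. For Nrxn3 they were Slc4a10 (0.2), Syt1 (0.25) and Kcnd2 (0.3), where the median gene was at 1.83. For Cbln1 they were Arap2 (0.17), St8sia5 (0.23) and Slc1a3 (0.24), with a median of 0.8. For Cbln2 they were Zcchc12 (0.42), Rasgrf2 (0.48) and Dgkk (0.49), with a median of 2.92. Cbln3 and Cbln4 had no such close neighbours: Fam107a (0.81), Aldh1a1 (0.86) and Pvalb (0.99) for Cbln3, and Tshz2 (0.59), Pdzrn4 (0.63) and Sema3e (0.64) for Cbln4, with medians of 2.03 and 1.56. Tshz2, Pdzrn4 and Sema3e had mean intensities of 2478, 1118 and 1252 in tumours, 317, 109 and 162 in GNPC, and 1824, 731 and 1186 in DBS. Grid1 lay nearest to Inpp5f (0.2), Stx1a (0.2) and B630019K06Rik (0.21), and Nrxn2 to Gspt2, Abca5 and Dipk1a (0.2 each), with medians of 1.16 and 0.92.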

How the data were processed

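Total RNA of 13 mouse samples was labelled by the manufacturer's amplification in 2 cycles and hybridised to Affymetrix arrays of 45101 probe sets, per the labels' protocols. The deposited intensity values are linear and, per the submitters' processing notes, MAS5 was used, with no role or version given. In the files every array has a mean of 500 after trimming 2% at each end. Detection calls were not used here. Groups came from the labels' source names. Replicates were numbered by accession order, which pairs no samples. Gene names came from the platform annotation, where 34945 probe sets have 1 symbol, 932 several and 9160 none, and 0 changed against a current table.

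Values were tested as log2(intensity + 18), 18 being the 20th percentile of all values, which shrinks the folds of dim genes. Control probe sets and those above their array's median on fewer than 3 arrays were left out. One limma model (3.58.1 in R 4.3.3, a mean per group, eBayes with an intensity trend) was fitted to all 13 arrays and tested on simulated data. P-values measure the spread between mice pooled over all 3 groups, and precision is limited by how many arrays there are. The spread of the tumours therefore also enters the p-values of GNPC against DBS. Every member probe set is named. Partner genes are named for the 3 largest rises and falls that passed. The members and lists were chosen with earlier results of these data known.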

Additional observations from a re-analysis of the deposited data

Results flagged for a closer look

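Each member probe set was examined for an array far from the rest of its group, over 32 groups of 4 or 6 arrays, where chance alone is expected to mark about 1 in 20. The only one marked was Nrxn2 1455499_at in tumour 4, at an intensity of 16.2, with the other tumours between 1.2 and 4.1. This probe set was under the array median on all 13 arrays and was not tested.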

How the results depend on the processing

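Of the counts of passing probe sets and genes, those of members moved by over 1.5 times with 1 probe set per gene, to 4 (1 higher, 3 lower) in tumours against GNPC and 5 (1 higher, 4 lower) in tumours against DBS, from 8 each, because that setting tests 7 member probe sets in place of 13. Of all 12266 genes under that setting, 803 were higher and 1730 lower against GNPC, and 1887 higher and 2545 lower against DBS. Over the 13 settings that leave out 1 array each, the member counts ran from 8 to 10 in tumours against GNPC, from 8 to 9 in tumours against DBS and from 6 to 9 in GNPC against DBS. The calls over all 25881 tested probe sets ran from 4292 to 5007, from 8697 to 8991 and from 4088 to 4739 in those settings. The partner counts ran from 24 to 27, stayed at 32 and ran from 11 to 17. No member probe set changed direction under any of the alternatives, which were pseudocounts of 1 and 50, no filter, a filter at 3 times the median, scaling to the same median, quantile normalization, no intensity trend, array weights, only the groups compared, 1 probe set per gene, and no probe sets ending in _x_at, _s_at or _a_at. No paired analysis was possible because the labels give no replicate numbers. Values near the 20th percentile, such as Cbln2 in tumours, have folds that depend on the pseudocount.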
